A study of Mus musculus with 8 samples.

Results

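The genes of vitamin A storage and retinoic acid turnover were examined in mouse hepatic stellate cells treated with an inhibitor of protein O-GlcNAcylation. They were the 9 genes Lrat, Cyp26a1, Cyp26b1, Dhrs3, Aldh1a1, Aldh1a2, Rarb, Stra6 and Rdh10. They were taken by symbol from the 40840 genes of the expression tables, with earlier results of these data known. All 9 were listed, and 8 of them passed the filter of at least 10 counts over the 8 libraries, as did 19963 genes in all. RNA was sequenced from primary stellate cells of male C57BL/6J mice aged 15 to 18 weeks, which had been cultured for 7 d in medium with 5% fetal bovine serum and had become myofibroblastic (pMF-HSCs). The control group (n = 4) received the vehicle DMSO. The OGTi group (n = 4) received OSMI-1, an inhibitor of O-GlcNAc transferase (OGT), at 50 µM for 24 h. Each replicate number stood for an independent experiment that gave 1 control and 1 treated culture, hereafter a pair. No allele differed between groups. The cells had been sorted by the autofluorescence of their stored retinol, so retinoid content itself decided which cells were cultured, and serum is a source of retinol in the medium.

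Hepatic stellate cells hold most of the body's vitamin A as retinyl esters in lipid droplets, and lose these droplets as they turn into myofibroblasts. LRAT makes the esters from retinol. RDH10 oxidises retinol to retinal, DHRS3 reduces retinal back to retinol, and the retinal dehydrogenases ALDH1A1 and ALDH1A2 turn retinal into retinoic acid. Retinoic acid binds nuclear receptors such as RARB, and the CYP26 enzymes oxidise it for removal. Cyp26a1, Cyp26b1, Dhrs3, Lrat and Rarb are known in many tissues as genes that retinoic acid itself induces. STRA6 is a membrane receptor that takes up retinol from its carrier in plasma.

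Of the 8 members tested, 5 fell after OGTi (Lrat, Dhrs3, Cyp26a1, Cyp26b1 and Rarb), 1 rose (Rdh10) and 2 did not pass the test (Aldh1a1 and Aldh1a2). Over all genes tested, 18.4% were called, with 8.13% higher and 10.2% lower in OGTi. Called genes had an adjusted p of at most 0.05 in edgeR's quasi-likelihood test, blocked by replicate number and adjusted by Benjamini-Hochberg over all genes. The median log2 fold change of the 8 members was -2.18, while that of all genes tested was 0.01. The values of the 2 groups did not overlap for 6 of the 8 members, whereas 23.5% of all genes tested had groups that did not overlap. As the members were chosen with earlier results known, these shares describe them and do not test the set. In bulk RNA, fewer cells carrying a transcript and less of it per cell cannot be told apart.

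Sequence at the start sites is shown first for Cyp26a1 and Rarb, because the retinoic acid receptor is known to bind direct repeats of a 6-base half-site and these members carry such repeats with a spacer of 5 bases. Both strands were searched from 2000 bases upstream to 1000 bases downstream of each member's canonical start (GRCm39, GENCODE vM39) for the half-site AGGTCA, the half-site AGTTCA, the half-site GGGTCA or the half-site GGTTCA, followed by a second of these 4 half-sites after 1, 2 or 5 bases. Cyp26a1 held 2 repeats and Rarb held 1, each with 5 bases between the half-sites. The letters were not found in the windows of the other 7 members. The search in 21770 start sites of all genes found a repeat with the 5-base spacer in 1.01% of these windows, one with the 1-base spacer in 2.1% and one with the 2-base spacer in 2.64%. In windows from 250 bases upstream to 50 downstream, which hold the repeat next to the Cyp26a1 start but not the one of Rarb, the 5-base spacer was found in 0.0551%. The wide window was set after the sites of these genes had been located. Half-sites are in capitals, within 29 bases read 5′ to 3′ on the strand that carries the repeat:
Cyp26a1, repeat next to the start: caaattAGTTCAcccaaAGTTCAtcttta
Cyp26a1, upstream repeat: ctgcagGGGTCAcaggcGGGTCAggctaa
Rarb, repeat in exon 1: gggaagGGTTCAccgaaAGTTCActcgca

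The first Cyp26a1 repeat lay at chr19:37686224-37686240 on the strand opposite to the gene, ending just before the start of transcript Cyp26a1-201 at 37686241. The upstream one lay at chr19:37684357-37684373, on the strand of the gene, from position -1884 relative to that start. The Rarb repeat lay at chr14:5894234-5894250, in the untranslated part of exon 1 of the long transcript Rarb-201 and 28 bases before the start of the shorter transcript Rarb-219 at 5894279. In RefSeq's promoters of GRCm38.p6, from 250 bases before to 50 after a start, the same kind of repeat ended 15 bases before the Cyp26a1 start and 36 before the Rarb start, and 0.115% of 27025 genes held one. A match of letters is a description and not a measured binding site, since no binding was measured here.

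Lrat, which encodes the enzyme that esterifies retinol for storage (chromosome 3, 82799886 to 82811288, minus strand), fell in all 4 pairs. Levels are given as scaled counts, which are read counts divided by the library's normalised size and multiplied by the mean size, so that they compare 1 gene between libraries. Lrat had 692, 995, 1844 and 1515 scaled counts in control replicates 1 to 4, and 353, 315, 333 and 377 in OGTi replicates 1 to 4. The groups did not overlap, and the control cultures varied far more (SD 516) than the treated ones (SD 26.6). The log2 fold change was -1.78 ± 0.28 (SE, n = 4 pairs), a 3.43-fold decrease (edgeR adjusted p = 0.00232). The log2 differences within pairs ran from -0.97 in pair 1 to -2.46 in pair 3.

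Dhrs3, whose product returns retinal to retinol (chromosome 4, 144619245 to 144654779, plus strand), was the member with the highest TPM in control cells and fell 12.4-fold. It had 11996, 16877, 20810.4 and 10780.3 scaled counts in control replicates 1 to 4, and 1614, 3475, 1138 and 287 in OGTi replicates 1 to 4. Every treated culture lay below every control, yet the treated cultures themselves spread over more than a factor of 10 between replicates 2 and 4. Across pairs the log2 fold change was -3.63 ± 0.45 (SE, n = 4 pairs, edgeR adjusted p = 0.000806), and the pair differences ran from -2.28 to -5.23.

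The 2 retinoic acid hydroxylases showed the greatest fold decreases among the members. Cyp26a1 (chromosome 19, 37686241 to 37689984, plus strand) had 84, 188, 259 and 185 read counts in control replicates 1 to 4, and 0, 11, 1 and 3 in OGTi replicates 1 to 4. Its transcript was thus near the limit of detection after treatment, where a count of 0 still allows up to 3 counts. The log2 fold change was -5.50 ± 0.64 (SE, n = 4 pairs, edgeR adjusted p = 0.000588). Summed over libraries, 716 control counts stood against 15 treated ones, a ratio of 40.0 after scaling with a 95% Clopper-Pearson interval of 24.1 to 71.9, which covers counting error only. Replicate 2 held 11 of the 15 treated counts, and without it the log2 fold change was -6.69. With so few treated counts the size of this change is imprecise, whereas its direction was alike in 4 of 4 pairs.

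Cyp26b1 (chromosome 6, 84548396 to 84570890, minus strand) was the more abundant of these hydroxylases in control cells. It had 2376, 2423, 3041 and 2539.7 scaled counts in control replicates 1 to 4, a narrow range, and 109.6, 326, 90.5 and 72.4 in OGTi replicates 1 to 4. The groups were far apart, and replicate 2 again kept the highest treated level. Across pairs the log2 fold change was -4.38 ± 0.40 (SE, n = 4 pairs), a 20.9-fold decrease (edgeR adjusted p = 0.000242).

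Rarb, the retinoic acid receptor beta gene (chromosome 14, 5650540 to 6041094, plus strand), fell 5.98-fold. It had 8088, 14432, 9057 and 6799 scaled counts in control replicates 1 to 4, and 1607, 2959, 1976 and 582 in OGTi replicates 1 to 4. Replicate 2 was highest and replicate 4 lowest in both groups, and no treated culture reached a control. The log2 fold change was -2.58 ± 0.27 (SE, n = 4 pairs, edgeR adjusted p = 0.000351). The drop was similar in pairs 1 to 3, between -2.20 and -2.34, and greater in pair 4 at -3.54.

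**Figure D1:**
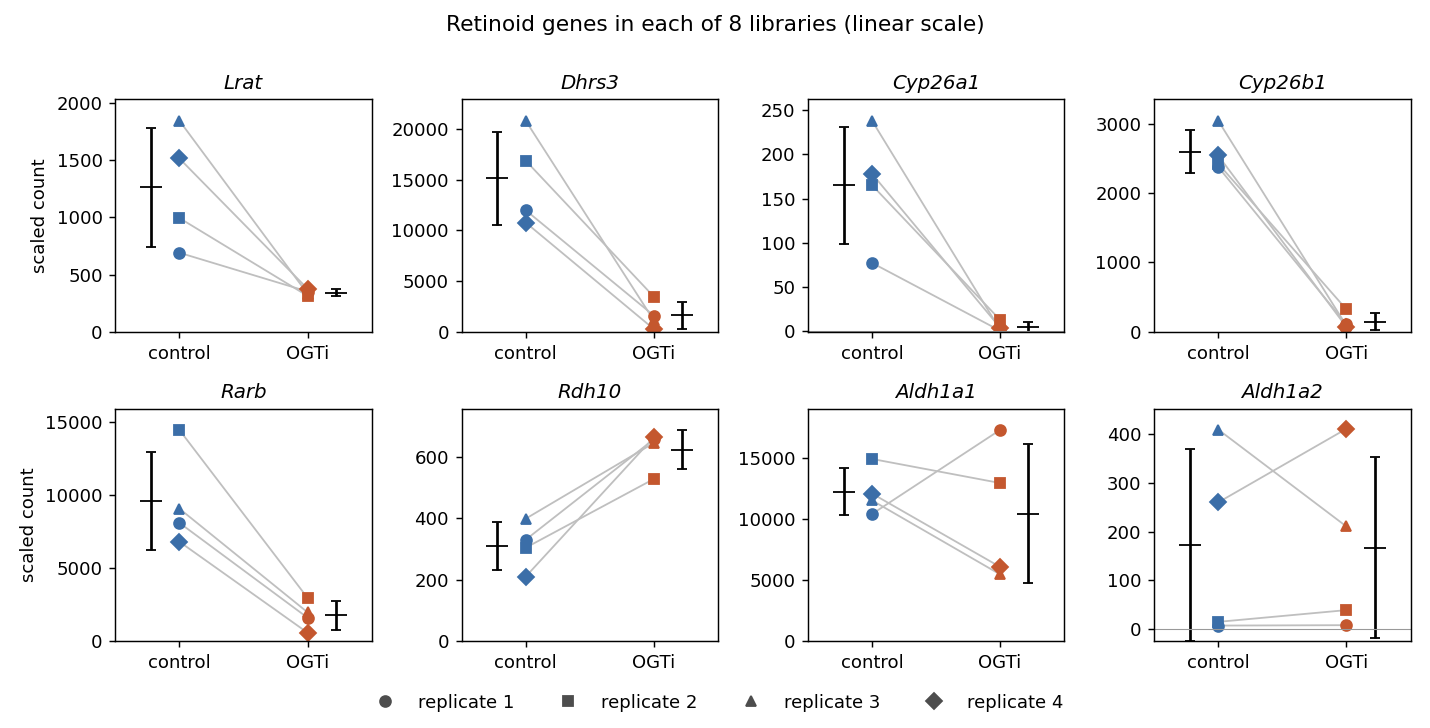
Scaled counts (vertical axes, linear) of the 8 detected members in control (blue) and OGTi (orange) libraries, with symbols for replicate numbers, grey lines joining pairs and black bars for mean ± SD (n = 4). Lrat, Dhrs3, Cyp26a1, Cyp26b1 and Rarb lie lower in every OGTi library than in any control, Rdh10 lies higher, and Aldh1a1 and Aldh1a2 overlap.

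Rdh10, which encodes the retinol dehydrogenase that starts retinoic acid synthesis (chromosome 1, 16175555 to 16203958, plus strand), moved the other way. It had 330.2, 304, 399 and 210.0 scaled counts in control replicates 1 to 4, and 657, 528, 646 and 664 in OGTi replicates 1 to 4. Each treated culture exceeded each control, with pair differences from 0.69 to 1.66. Across pairs the log2 fold change was 1.03 ± 0.25 (SE, n = 4 pairs), a 2.05-fold increase (edgeR adjusted p = 0.0166). This call was the least firm of the 6. Without replicate 3 the adjusted p was 0.05005 and without replicate 4 it was 0.0759, with log2 fold changes of 1.15 and 0.84, and it was 0.0826 on log2(TPM + 1) and 0.0787 on log2(TPM + 0.1).

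Aldh1a1 and Aldh1a2, which encode the enzymes that make retinoic acid from retinal, did not pass the test. Aldh1a1 (chromosome 19, 20469539 to 20622825, plus strand) had 10414, 14933, 11541 and 12100.3 scaled counts in control replicates 1 to 4, and 17309, 12957, 5474 and 6087 in OGTi replicates 1 to 4. The pairs did not move alike: the treated culture was higher in pair 1 by 0.73 on the log2 scale, and lower in pairs 2, 3 and 4 by -0.20, -1.08 and -0.99. The log2 fold change was -0.39 ± 0.30 (SE, n = 4 pairs, edgeR adjusted p = 0.405). Leaving out replicate 1 gave -0.76 with an adjusted p of 0.0484. The OGTi library of that replicate stood apart in another way. Its short genes read high and its long genes low against the mean of the other OGTi libraries. The median log2 deviation was 0.60 in the shortest of 5 length classes and -0.51 in the longest. With the length trend removed the value of Aldh1a1 over all 4 pairs was not called either. Its near-identical copy Aldh1a7 lies on the same chromosome (20667107 to 20704932), and how reads fitting both were divided could not be checked. Aldh1a7 averaged 2.96 scaled counts in control.

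Aldh1a2 (chromosome 9, 71122630 to 71203527, plus strand) divided the cultures by replicate number and not by treatment. It had 7.34, 14.9, 409.8 and 260.1 scaled counts in control replicates 1 to 4, and 8.19, 39.1, 211 and 411 in OGTi replicates 1 to 4. All 4 cultures of replicates 1 and 2 held at most 39.1, and all 4 of replicates 3 and 4 held at least 211. The log2 fold change between groups was 0.26 ± 0.39 (SE, n = 4 pairs, edgeR adjusted p = 0.703), and its sign changed without the block by replicate number. Among the carriers, Crabp1, a cytosolic retinoic acid binding protein, had a like order over the replicates, with 35.8, 69.5, 158 and 203 scaled counts in control and 35.8, 71.5, 178 and 307 in OGTi. Mesothelium also expresses Aldh1a2. The 9 listed mesothelial markers summed to 49.3 to 80.4 CPM, counts scaled by the library's normalised size, in control and 32.9 to 48.6 CPM in OGTi. Nearly all of that sum was Krt19, a keratin that bile duct cells also express. Of the other markers, Msln had 27.6 to 35.8 scaled counts in control and 0 to 63.7 in OGTi, Upk1b had 11.4 to 36.8 over all 8 libraries and Wt1 had 0 to 28.1, while Muc16 had 0 counts throughout. Gpm6a had 0 counts in the cultures of replicates 1 and 2 and 1 to 5 counts in those of replicates 3 and 4. Markers of other cells divided the cultures in the same way. All cultures of replicates 1 and 2 lay below all of replicates 3 and 4 for 6 of 10 macrophage markers, 4 of 16 stellate cell markers, 2 of 7 smooth muscle markers, 1 of 8 bile duct markers and 1 of 9 mesothelial ones, against 3.03% of all genes tested. The macrophage marker Tyrobp had 2.75, 0.88, 93.9 and 37.6 scaled counts in control replicates 1 to 4, and 0, 1.12, 145 and 44.8 in OGTi replicates 1 to 4. Lum, a stellate cell marker, had 2372, 1309, 14440.2 and 21021 in control and 2798, 1623, 21975 and 29155 in OGTi. The part of any of these cell types in the split of Aldh1a2 was not tested.

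Stra6 (chromosome 9, 57970967 to 58063543, plus strand) had 0 counts in each of the 8 libraries. A count of 0 allows up to 3 counts in a library, which is between 2.64 and 3.45 scaled counts, so no difference in Stra6 could be detected at this depth. Its liver paralog Stra6l was among the carrier genes examined and was not called either (log2 fold change -1.99 ± 1.84).

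**Figure D2:**
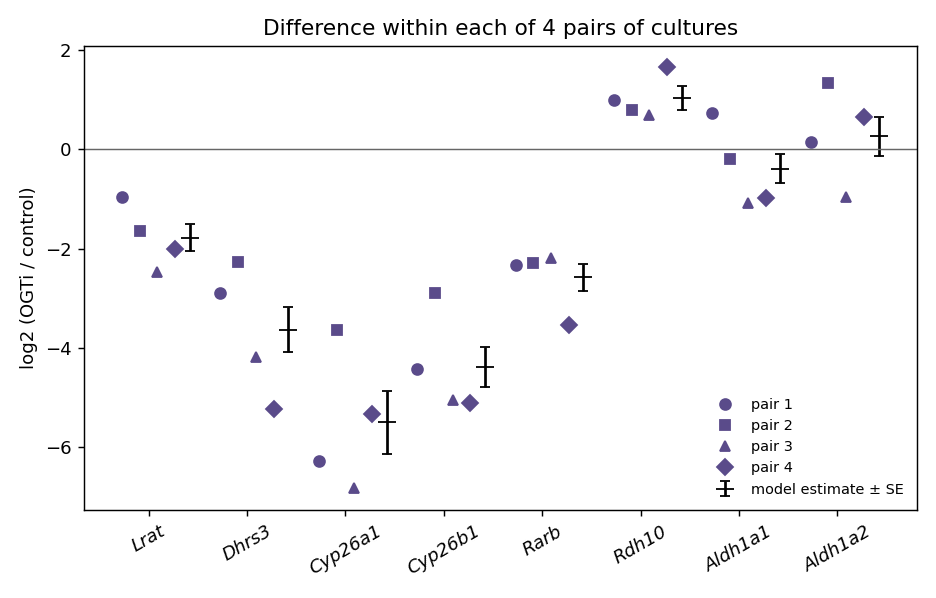
Log2 ratio of scaled counts, OGTi over control (vertical axis), within each of the 4 pairs of cultures for the 8 detected members, with the model's log2 fold change ± SE in black. Lrat, Dhrs3, Cyp26a1, Cyp26b1 and Rarb lie below 0 in 4 of 4 pairs and Rdh10 above 0 in 4 of 4, while the pairs of Aldh1a1 and Aldh1a2 fall on both sides of 0.

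The order of the members by transcript level also changed. Levels of different genes were compared in TPM, a transcript abundance that takes gene length and depth into account. In control cells Dhrs3 was first at 362 ± 116 TPM (SD, n = 4), followed by Aldh1a1 at 258 ± 39.3 and Rarb at 169.7 ± 57.7. Dhrs3 exceeded Aldh1a1, and Aldh1a1 exceeded Rarb, in each of the 4 control libraries, although the ranges of neighbours overlapped. A gap separated these from Cyp26b1 at 21.8 ± 2.93 TPM and Lrat at 12.1 ± 5.13. Rdh10 at 7.35 ± 1.91, Cyp26a1 at 5.57 ± 2.32 and Aldh1a2 at 4.21 ± 4.82 had overlapping ranges, as did Lrat and Rdh10.

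After OGTi, Aldh1a1 was first at 174 ± 87.5 TPM (SD, n = 4) and above Dhrs3 in 4 of 4 libraries, with no overlap. Dhrs3 at 32.5 ± 30.6 TPM, Rarb at 25.8 ± 16.7 and Rdh10 at 11.7 ± 0.947 formed the next group, in which neighbours overlapped. Aldh1a2 at 3.27 ± 3.62 and Lrat at 2.62 ± 0.281 overlapped too. Cyp26b1 at 1.07 ± 1.01 and Cyp26a1 at 0.13 ± 0.17 had the lowest means of those detected, although Aldh1a2 lay below Cyp26b1 in OGTi replicates 1 and 2. The TPM ratio of Dhrs3 to Rdh10, whose products catalyse opposite reactions between retinol and retinal, was 36.8, 56.1, 53.0 and 51.9 in control replicates 1 to 4. It was 2.50, 6.68, 1.78 and 0.44 in OGTi replicates 1 to 4, so the ranges of this ratio were far apart, and in OGTi replicate 4 Rdh10 exceeded Dhrs3. Such a ratio within a library does not depend on how libraries were scaled, but it combines 2 genes that both moved.

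**Figure D3:**
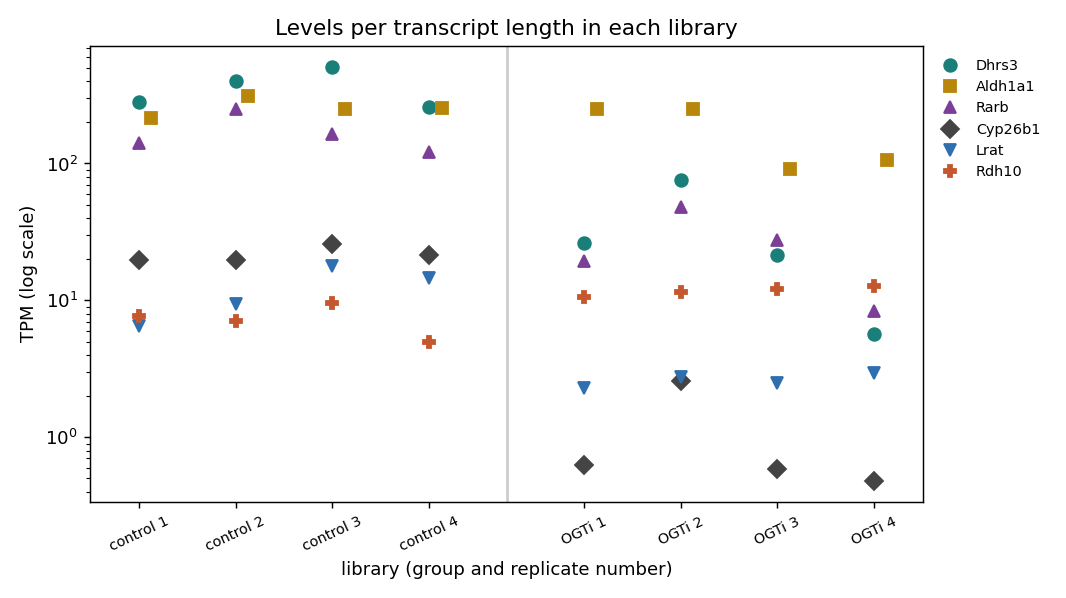
TPM on a log scale (vertical axis) of 6 members in each of the 8 libraries (horizontal axis, group and replicate number). Dhrs3 stands above Aldh1a1 in each control library and below it in each OGTi library, and Rdh10 stands above Lrat and Cyp26b1 in each OGTi library.

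The other genes of retinoid handling were taken from 6 lists with 66 genes, of which 56 were tested. The lists, too, were chosen with earlier results of these data known. After OGTi, 8 of the 56 rose and 9 fell, 30.4% against 18.4% of all genes tested, and the median log2 fold change was 0.13. These counts were sensitive to single replicates, with 8 genes called without replicate 3 and 9 without replicate 4. Among the carriers, Fabp5, Crabp1 and Crabp2, which carry retinoic acid in the cell, were not called, with log2 fold changes of -0.14, 0.21 and 1.48. The value of Crabp2 is imprecise (SE 0.79), with 0 to 17.5 scaled counts in control and 11.3 to 31.0 in OGTi.

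Genes of ester and lipid droplet metabolism moved in both directions. Of the 8 tested, 3 rose and 1 fell, a share called of 50% against 18.4% of all genes tested. Dgat2, an acyltransferase that forms triglycerides, had 201 to 777 scaled counts in control and 1108 to 1390.3 in OGTi (log2 fold change 1.34 ± 0.33, edgeR adjusted p = 0.0182). Abhd5, the activator of the lipase PNPLA2, rose from 2020.4 to 2903 scaled counts in control to 4458 to 5811 in OGTi (1.13 ± 0.20, edgeR adjusted p = 0.00405). Pnpla2 itself, which degrades lipid droplets, had a log2 fold change of 0.75 ± 0.22 (edgeR adjusted p = 0.0363). Plin2, a lipid droplet coat protein, fell from 18367 to 24777 scaled counts in control to 5534 to 15275 in OGTi (-1.09 ± 0.22, edgeR adjusted p = 0.00757). Of these 4, Abhd5 and Plin2 were called in 14 of 14 alternative analyses, Dgat2 in 10 and Pnpla2 in 6. The call of Dgat2 was lost without replicate 3 or 4, and that of Pnpla2 without any single replicate. Dgat1, Lipe and Lpl were not called, at log2 fold changes of 0.19, -0.68 and 0.41.

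Among the 14 tested oxidoreductases of retinol and retinal, 3 rose and none fell, a share called of 21.4% that is near the 18.4% of all genes tested. Rdh14, a retinal reductase of the RDH11 family, had 257, 1025, 349.9 and 280.4 scaled counts in control and 2174, 1289, 1897 and 990.1 in OGTi (log2 fold change 1.93 ± 0.41, edgeR adjusted p = 0.0092). Rdh5 had 57.8 to 96.7 scaled counts in control and 144 to 185 in OGTi (1.07 ± 0.28, edgeR adjusted p = 0.0268). Rdh9 was barely present, with 0 to 14.9 scaled counts in control and 20.7 to 104 in OGTi (2.77 ± 0.63, edgeR adjusted p = 0.0136), and its family has close copies between which reads could be split. The calls of Rdh5 and Rdh9 were lost without replicate 1 or 2, and that of Rdh5 also without replicate 3 or 4. The most abundant of those not called, Adh5, Dhrs4 and Rdh11, had log2 fold changes of 0.12, 0.13 and 0.36.

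None of the 5 further enzymes of retinoic acid synthesis and breakdown tested was called by edgeR. Bco1, which cleaves beta-carotene to retinal, was the most abundant gene of all the retinoid lists, at 992 ± 206 TPM in control and 607 ± 34.4 in OGTi (SD, n = 4). It had 39763, 40447, 53596 and 58347 scaled counts in control and 39521, 33258, 38139 and 36747 in OGTi, a log2 fold change of -0.36 ± 0.18 (edgeR adjusted p = 0.1998). Aldh1a3, another retinal dehydrogenase gene, had a log2 fold change of 0.66 ± 0.30 (edgeR adjusted p = 0.164) from 1.52 TPM in control. Cyp2s1, a cytochrome P450 that can oxidise retinoic acid, stood at 0.34 TPM in control and had a log2 fold change of -1.17 ± 0.63 (edgeR adjusted p = 0.236). Cyp26c1, the third CYP26 hydroxylase, had too few counts to be tested.

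Of the receptors other than Rarb, Rara and Rarg fell while the RXR genes were not called. That is 40% of the 5 tested against 18.4% of all genes tested. Rara had 704, 839.8, 622 and 671 scaled counts in control and 246, 385, 191 and 262 in OGTi (log2 fold change -1.42 ± 0.23, edgeR adjusted p = 0.00253). Rarg had 883, 1055, 1062 and 1528 in control and 312, 619, 268 and 388 in OGTi (-1.56 ± 0.27, edgeR adjusted p = 0.00352). All 3 RAR genes were thus lower in 4 of 4 pairs with groups that did not overlap. Groups did not overlap, in either direction, for 23.5% of all genes tested. Both Rara and Rarg were called in 14 of 14 alternative analyses. Rxra, Rxrb and Rxrg, the partners of the RAR proteins, had log2 fold changes of -0.57, 0.49 and -1.61 with adjusted p of 0.110, 0.161 and 0.478 (edgeR). Rxra was lower in 4 of 4 pairs and Rxrb higher in 4 of 4. Rxrg was barely present, with 41 counts over the 8 libraries and an SE of 1.39, so its value is imprecise. Whether the RAR and RXR genes differed from each other was not tested.

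Among 17 tested response genes other than the members, 5 fell and 2 rose, a share called of 41.2% against 18.4% of all genes tested. Hoxb5 had 159, 193, 173 and 103 scaled counts in control and 43.0, 48.0, 34.2 and 18.4 in OGTi (log2 fold change -2.16 ± 0.30, edgeR adjusted p = 0.00134). Hoxa4, another Hox transcription factor gene, fell by 1.66 on the log2 scale. Meis1, which encodes a partner of Hox proteins, fell by 1.18, the nuclear receptor gene Nr2f2 fell by 1.16, and Rai14 fell by 0.97 with the weakest support of the 5 (edgeR adjusted p = 0.0448). Zfp703 and the chemerin gene Rarres2 rose, with log2 fold changes of 0.94 and 0.89. Rarres2, like Aldh1a2, was higher in replicates 3 and 4 than in replicates 1 and 2, with 159, 44.0, 418 and 721 scaled counts in control and 394, 83.8, 672 and 1122 in OGTi. Tgm2, the transglutaminase that is a classical target of retinoic acid, was not called (-0.42 ± 0.21, edgeR adjusted p = 0.194), nor was Tshz1 at -0.17. Hoxb5 alone of the 7 was called in 14 of 14 alternative analyses. The calls of Meis1 and Nr2f2 were lost without replicate 3, that of Zfp703 without replicate 3 or 4, that of Hoxa4 without replicate 1, 2 or 4, that of Rai14 without replicate 1, 3 or 4, and that of Rarres2 without any single replicate.

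**Figure D4:**
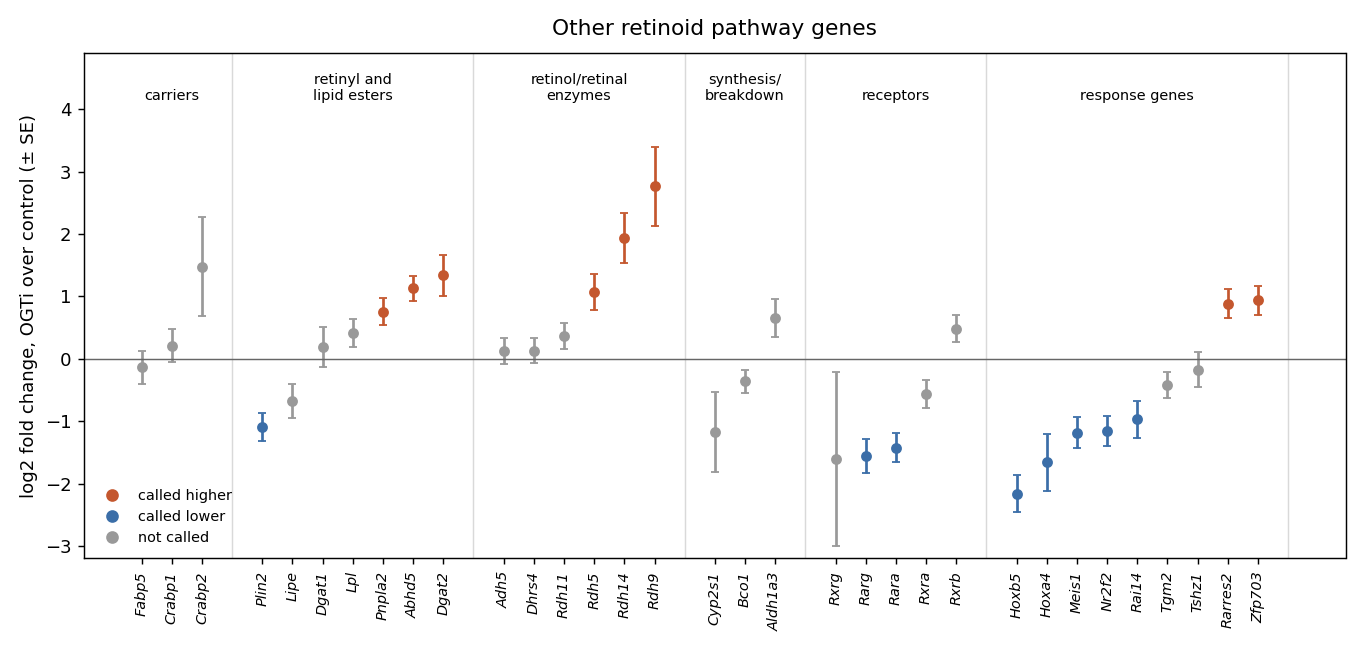
Log2 fold change ± SE (vertical axis, OGTi over control) of retinoid pathway genes outside the 9 members, by list, with genes called higher in orange, called lower in blue and not called in grey. Rara and Rarg fell by 1.42 and 1.56 while the RXR genes are grey, and the oxidoreductases called are all higher.

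For each called member, the 3 genes whose 4 pair differences were closest to it were taken among 10725 genes with a mean count of at least 100. This likeness, the root mean square of the differences in log2 ratio, is a description over only 4 pairs. For Dhrs3 the closest was Adora2b, the adenosine A2B receptor gene, at 0.07, followed at a distance by Slfn2 at 0.62 and Aurkb at 0.66. Cyp26b1 was closest to Nrep at 0.30, Cc2d2a at 0.44 and A730049H05Rik at 0.45. Cyp26a1 had no near companion, since Cyp1b1, Nrep and Cyp26b1 lay at 0.99, 1.33 and 1.34. Rarb was followed by Plscr2, A730020M07Rik and Ptafr at 0.23, 0.23 and 0.28. Lrat had Nme4, Fam234b and Prr12 at 0.16, 0.16 and 0.17, and Rdh10 had Ap5z1, Tk2 and Cbr3 at 0.12, 0.12 and 0.15.

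The libraries held 30068876 to 37372420 counts each, and the 10 most counted genes took 6.73% to 7.76% of them in control and 10.9% to 15.8% in OGTi. The 16 stellate cell markers were all detected and summed to 9542 to 15831 CPM in control and 8255 to 16617 CPM in OGTi, with Dcn as the most abundant. Of these markers Pdgfrb, Pdgfra and Hgf fell and none rose, 18.8% of the list against 18.4% of all genes tested. Several other lists moved with the treatment without overlap of their sums. Hepatocyte genes summed to 0.0517 to 0.419 CPM in control and 0.689 to 1.84 CPM in OGTi, with Cyp2e1 called higher and with Hnf4a and Tat at 0 in all libraries. The 8 portal fibroblast markers summed to 162 to 428 CPM in control and 24.7 to 145 CPM in OGTi. Nearly all of that sum was Fbln2, and Clec3b was at 0. The 10 endothelial markers summed to 3.84 to 8.73 CPM in control and 1.06 to 2.79 CPM in OGTi. Of these, Tek, Ptprb and Lyve1 were called lower, 33.3% of those tested. The other 6 tested were not called, among them Pecam1 at a log2 fold change of 1.33 ± 0.78. The mesothelial sum given with Aldh1a2 fell too. The summed macrophage, bile duct and smooth muscle markers overlapped between groups, at 31.2 to 100.3, 201 to 437 and 453 to 755 CPM in control and 58.8 to 159.8, 128 to 515 and 361 to 639.9 CPM in OGTi. Within them, Cd68 rose 2.83-fold and Sox9 8.19-fold (edgeR adjusted p = 0.00154 and 0.00858), while Krt19 and Mylk fell, with log2 fold changes of -0.66 and -1.61 (edgeR adjusted p = 0.0462 and 0.00627). The part of these cell types in the member results was not tested.

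**Figure D5:**
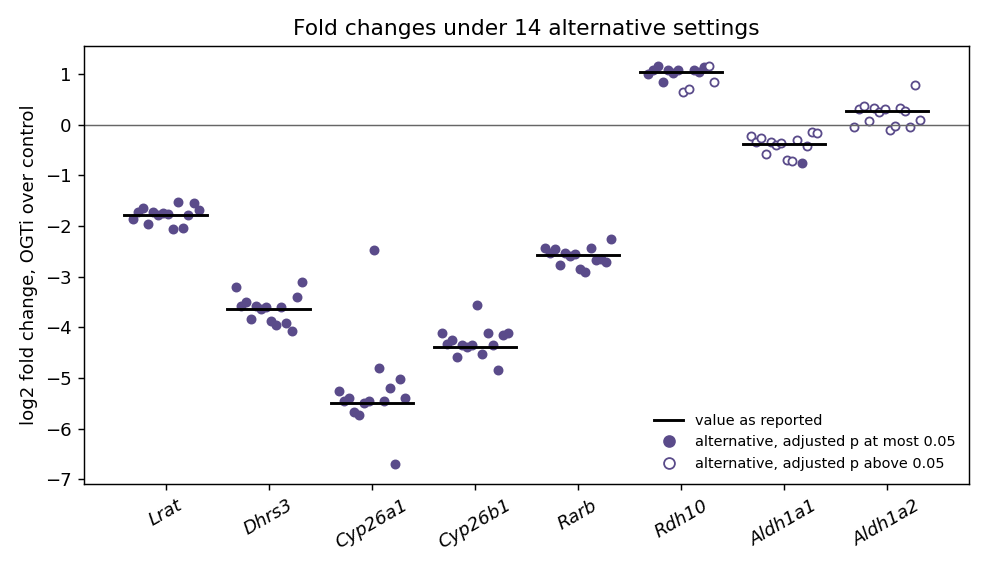
Log2 fold change (vertical axis, OGTi over control) of the 8 detected members as reported (black line) and under 14 alternative analyses (points, filled at an adjusted p of at most 0.05). Lrat, Dhrs3, Cyp26a1, Cyp26b1 and Rarb stay below 0 with filled points throughout, Rdh10 is filled in 10 of 14, Aldh1a1 in 1 and Aldh1a2 in 0.

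The 5 lower members were called under each of 14 other ways to scale, filter, model or subset the libraries. Over these, log2 fold changes ranged from -2.06 to -1.52 for Lrat, from -4.08 to -3.10 for Dhrs3, from -4.85 to -3.56 for Cyp26b1 and from -2.91 to -2.26 for Rarb. Cyp26a1 ranged from -6.69 to -2.48, the last on log2(TPM + 1), a scale that compresses genes of low level. Rdh10 ranged from 0.64 to 1.16 and was positive throughout.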

How the data were processed

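The members and gene lists were chosen with earlier results of these data known. Per the study's methods, the authors prepared stranded paired-end libraries, aligned reads with Bowtie2 2.3.5.1 to mm39 and estimated expression with RSEM 1.3.1. The deposited tables give, per library and gene, expected counts, estimated by the authors and not always whole, and TPM, which the authors scaled by gene length and depth. Between 0.251% and 0.978% of detected genes had a fractional count. A comparison table by the authors, made with DESeq2 1.36.0, holds their fold changes and p-values and was not used. The number of unused per-sample columns was 0, and no pair of libraries was identical. The methods name a GENCODE annotation, while the tables carry RefSeq transcripts. Gene positions came from GENCODE vM39 on GRCm39, the same build.

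Groups came from the sample titles. Expected counts were rounded and tested in edgeR 4.0.16 (R 4.3.3) with TMM scaling, a minimum total of 10 counts, glmQLFit and glmQLFTest, with the replicate number as block. SE was the log2 fold change divided by the root of F. The study's methods pair the samples of a replicate. Deviations from the group means correlated across genes at 0.083 to 0.289 for libraries with the same number and at -0.274 to 0.183 for others. Pair differences used a pseudocount of 1. The script was tested on simulated data. There, 24% of genes with a true log2 fold change of size 1 were called in the right direction, against 94% at size 2. A gene not called may thus still have changed. Named genes were all members, each pathway gene called, and up to 3 uncalled genes per list with the highest control TPM. Of these, 2 pathway genes are counted but not reported here. Alternatives used limma 3.58.1 on log2(TPM + 1) and log2(TPM + 0.1), DESeq2 1.42.0, other scalings and filters, removal of the length trend, and leaving out each replicate. As PCR copies of a molecule were not told apart, intervals and floors cover counting error only.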

Additional observations from a re-analysis of the deposited data

Results flagged for a closer look

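Values far from the rest of their group were looked for with Dixon's ratio in 86 groups of 4 libraries, over 44 genes. Of these groups 4 exceeded the critical value at 95%, and chance alone gives about 1 in 20, that is 4.3. Cyp26b1 in OGTi replicate 2 had 326 scaled counts, against 72.4 to 109.6 in the other treated libraries. Rdh10 in OGTi replicate 2 had 528 scaled counts, against 646 to 664. Rdh14 in control replicate 2 had 1025 scaled counts, against 257 to 349.9. Rxrb in control replicate 3 had 273 scaled counts, against 376 to 389.6.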

How the results depend on the processing

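Lrat, Dhrs3, Cyp26a1, Cyp26b1 and Rarb kept their direction and their call under all 14 alternatives. Without the replicate block, 6 members and 13 other pathway genes were called, and the calls of Pnpla2, Rarres2 and Rai14 were among those lost. The sign of Aldh1a2, never called, turned without the replicate block (-0.049), on log2(TPM + 1) (-0.10), on log2(TPM + 0.1) (-0.022) and without replicate 2 (-0.053). On these TPM scales Rdh10 fell short of the threshold at 0.64 and 0.70, so 0 members were called higher, 4 other pathway genes were called higher under each, and 3456 and 3473 of all genes were called lower. Scaling by library totals alone left 5 other pathway genes higher. Of all called genes 44.3% were higher in OGTi, but 30.1% with library totals alone and 25.7% and 26.2% on the TPM scales. The share was 54.2% with upper-quartile scaling and 52.2% with the length trend removed. Over all genes tested the median, 0.01 as reported, was -0.19 with library totals, -0.10 and -0.23 on the TPM scales, 0.13 with upper-quartile scaling, 0.14 without the filter and 0.10 with the length trend removed.

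Leaving out each replicate in turn gave 1905 to 3124 genes called, 843 to 1433 higher and 1062 to 1744 lower. It gave 5 to 7 members called, 0 to 1 of them higher, and 8 to 12 other pathway genes, 3 to 5 higher and 5 to 8 lower. Log2 fold changes ranged from 0.84 to 1.15 for Rdh10, from -0.76 to -0.15 for Aldh1a1 and from -0.053 to 0.79 for Aldh1a2. The 1905 and 1956 genes came without replicates 3 and 4, against 3124 and 3078 without replicates 1 and 2. The cause of these differences was not tested.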
